A study of Mus musculus with 27 samples.

Results

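The 8 genes described here encode 7 enzymes of cholesterol synthesis, Hmgcs1, Idi1, Fdps, Fdft1, Sqle, Lss and Dhcr7, and Insig1, a membrane protein that holds the pathway back. They were chosen by name from the 23279 genes listed for a series on limb bud-like tissues grown from mouse ES cells (ES-LBs), not by their levels in these libraries, although earlier results of the same data were known. Their levels were described over 26 libraries in 9 groups.

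ES-FLB and ES-HLB, the forelimb-like and hindlimb-like groups, were made from EB5 Hand2::GFP +/- ES cells, which carry a green fluorescent reporter at 1 copy of the mesenchyme gene Hand2. Aggregates received BMP4 and Matrigel on days 1 to 5, and either retinoic acid (RA) on days 5 to 6 (ES-FLB) or an RA antagonist on days 6 to 6.5 (ES-HLB). LDN193189, which inhibits BMP signaling, and Wnt3 were then added in steps, between days 7 and 9 per the labels, whereas the study's methods give days 6.5 to 7 for LDN193189, days 7 to 8 for Wnt3 and neither after day 8. GFP-positive cells of pooled aggregates were sorted on day 9, so these 6 libraries represent sorted mesenchyme of 1 cell line in serum-free culture, in a medium that the study's methods list with hydrocortisone. The 7 embryonic groups came from Slc:ICR mice and were dissected with no sorting named: forelimb buds (FLB) and hindlimb buds (HLB) at an early stage and at E10.5, plus, at E10.5, the heart (Ca), the branchial arches (BA) and the tail bud (TB). The labels give E10.0 for both early groups, whereas the study's text gives an earlier stage for the early FLBs than for the early HLBs, so limb type and stage cannot be told apart in that pair. For the embryonic tissues the study's methods name 3 embryos, without saying whether per library or in all, so tissues may share embryos. No label ties a library to a culture or an embryo, so the p-values below measure the spread between these libraries, which may be partly technical.

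Cholesterol is built in the endoplasmic reticulum from acetyl-CoA through mevalonate, isoprenoid units, squalene and lanosterol. Its enzymes are largely controlled together: when membrane sterol is low, SREBP2 is carried to the Golgi by SCAP, is cut there by proteases and enters the nucleus, where it switches the genes on through sterol regulatory elements, often next to NF-Y boxes. When sterol is plentiful, INSIG proteins keep SCAP in place. In the limb bud, cholesterol is also attached to the Sonic hedgehog ligand, and mutations of several late enzymes, DHCR7 among them, are known for malformed limbs and digits.

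The values are CPM, read counts scaled so that each library sums to 1000000 over the genes listed, and were rescaled between libraries by a trimmed mean of log ratios. Depth, recovered from the step of the low values, was 19642258 to 22142313 reads in the early limb buds and 5543746 to 8541937 in the other libraries used, so 3 reads correspond to 0.135 to 0.541 CPM, far below every value of the 8 genes. Replicate 2 of the E10.5 HLBs was not used, because 3930 of 3942 genes with expression in its 2 partner libraries were listed at 0 over several whole chromosomes, which carry Dhcr7 and Insig1. Summed over 6 limb mesenchyme markers, ES-LBs had 1843 to 1964 CPM and the 4 limb bud groups 1263 to 1636, while 6 endothelial markers summed to 25.4 to 43.7 CPM in ES-LBs and 294 to 406 in limb buds. The mesenchyme markers did not all follow their sum. In ES-HLB against the early HLBs, Pdgfra, Hand2, Prrx1 and Twist1 differed by 1.49, 1.11, 0.60 and 0.50 on a log2 scale. Fgf10 and Msx1 differed by -1.46 and -1.43. Hand2 is the gene whose reporter the ES-LB cells were sorted by. Sorting, strain and culture, and for the early buds also depth, differ together between ES-LBs and embryos and cannot be told apart. In bulk samples, fewer cells of a type and less RNA per cell cannot be told apart either.

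Where promoter sequence was at hand, it is given for the member whose profile over the groups was nearest to the others (Hmgcs1), the one farthest from them (Idi1), and the regulator Insig1. Windows run from 250 bases before to 50 after the annotated start in RefSeq (GRCm38.p6), 5′ to 3′ on the plus strand, which is the strand of all 3 genes. Capitals mark matches, on either strand, to TCACNCCAC (a core of the sterol regulatory element), to CACNCCAC (a looser form contained in it) and to CCAAT (the NF-Y box, ATTGG on the opposite strand). The windows are chr13:119690101-119690400 for Hmgcs1, chr13:8885356-8885655 for Idi1 and chr5:28071162-28071461 for Insig1.
Hmgcs1: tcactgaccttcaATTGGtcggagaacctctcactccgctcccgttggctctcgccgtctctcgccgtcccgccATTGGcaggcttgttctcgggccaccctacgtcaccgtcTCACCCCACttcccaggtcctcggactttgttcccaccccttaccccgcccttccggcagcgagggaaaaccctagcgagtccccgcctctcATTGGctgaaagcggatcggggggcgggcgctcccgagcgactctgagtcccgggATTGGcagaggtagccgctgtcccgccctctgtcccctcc
Idi1: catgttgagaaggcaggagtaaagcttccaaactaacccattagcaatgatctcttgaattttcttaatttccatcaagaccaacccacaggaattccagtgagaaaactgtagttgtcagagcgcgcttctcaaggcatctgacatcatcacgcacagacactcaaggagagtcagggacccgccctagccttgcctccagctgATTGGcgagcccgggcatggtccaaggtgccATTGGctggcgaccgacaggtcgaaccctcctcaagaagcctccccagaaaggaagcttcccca
Insig1: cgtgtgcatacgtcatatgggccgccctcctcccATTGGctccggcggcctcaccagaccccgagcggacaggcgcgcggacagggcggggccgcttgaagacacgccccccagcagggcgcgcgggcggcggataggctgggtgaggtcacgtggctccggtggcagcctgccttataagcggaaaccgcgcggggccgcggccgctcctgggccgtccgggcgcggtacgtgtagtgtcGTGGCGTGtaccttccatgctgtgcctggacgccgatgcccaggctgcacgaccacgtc
The Hmgcs1 window held 1 match to TCACNCCAC, from -137 to -129 relative to the start, and 4 matches to CCAAT. The Idi1 window held 2 matches to CCAAT, and that of Insig1 held 1, with a match to CACNCCAC on the opposite strand from -9 to -2. RefSeq windows were found for 5 of the 8 members, and Sqle, Fdps and Fdft1 had no entry. Among these 5, taking the first window of Dhcr7, TCACNCCAC occurred in 1, CACNCCAC in 2 and CCAAT in 4 (5 with the third of the 3 Dhcr7 windows, which held 2 matches), whereas 1.24%, 6.24% and 37.4% of all 32817 promoter windows held them. Among 12 of 14 other genes of the pathway with a window, the counts were 0, 1 and 11. A match describes letters in a window and not binding.

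All 8 genes were expressed in every library, and all passed the filter on low values. Per kilobase of exon, the mean over the 9 groups was highest for Hmgcs1 (109 CPM per kb) and Fdps (108), followed by Sqle (60.8), Idi1 (50.1), Insig1 (35.3), Fdft1 (34.2), Dhcr7 (20.3) and Lss (13.4). Summed over the 8 genes, scaled CPM was 1574 ± 51.0 (SD, n = 3) in ES-FLB and 1359 ± 10.9 (n = 3) in ES-HLB. The early limb buds lay apart from each other, at 812 ± 134 (n = 3) in FLB and 1285 ± 138 (n = 3) in HLB, and the E10.5 limb buds at 1202 ± 32.6 (n = 3) and 1544 ± 23.2 (n = 2). The remaining E10.5 tissues had 1136 ± 50.7 in BA, 1096 ± 22.0 in TB and 870.0 ± 37.9 in Ca (n = 3 each). The early FLBs were thus the lowest group and Ca the next, while ES-FLB and the E10.5 HLBs were the highest.

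**Figure D1:**
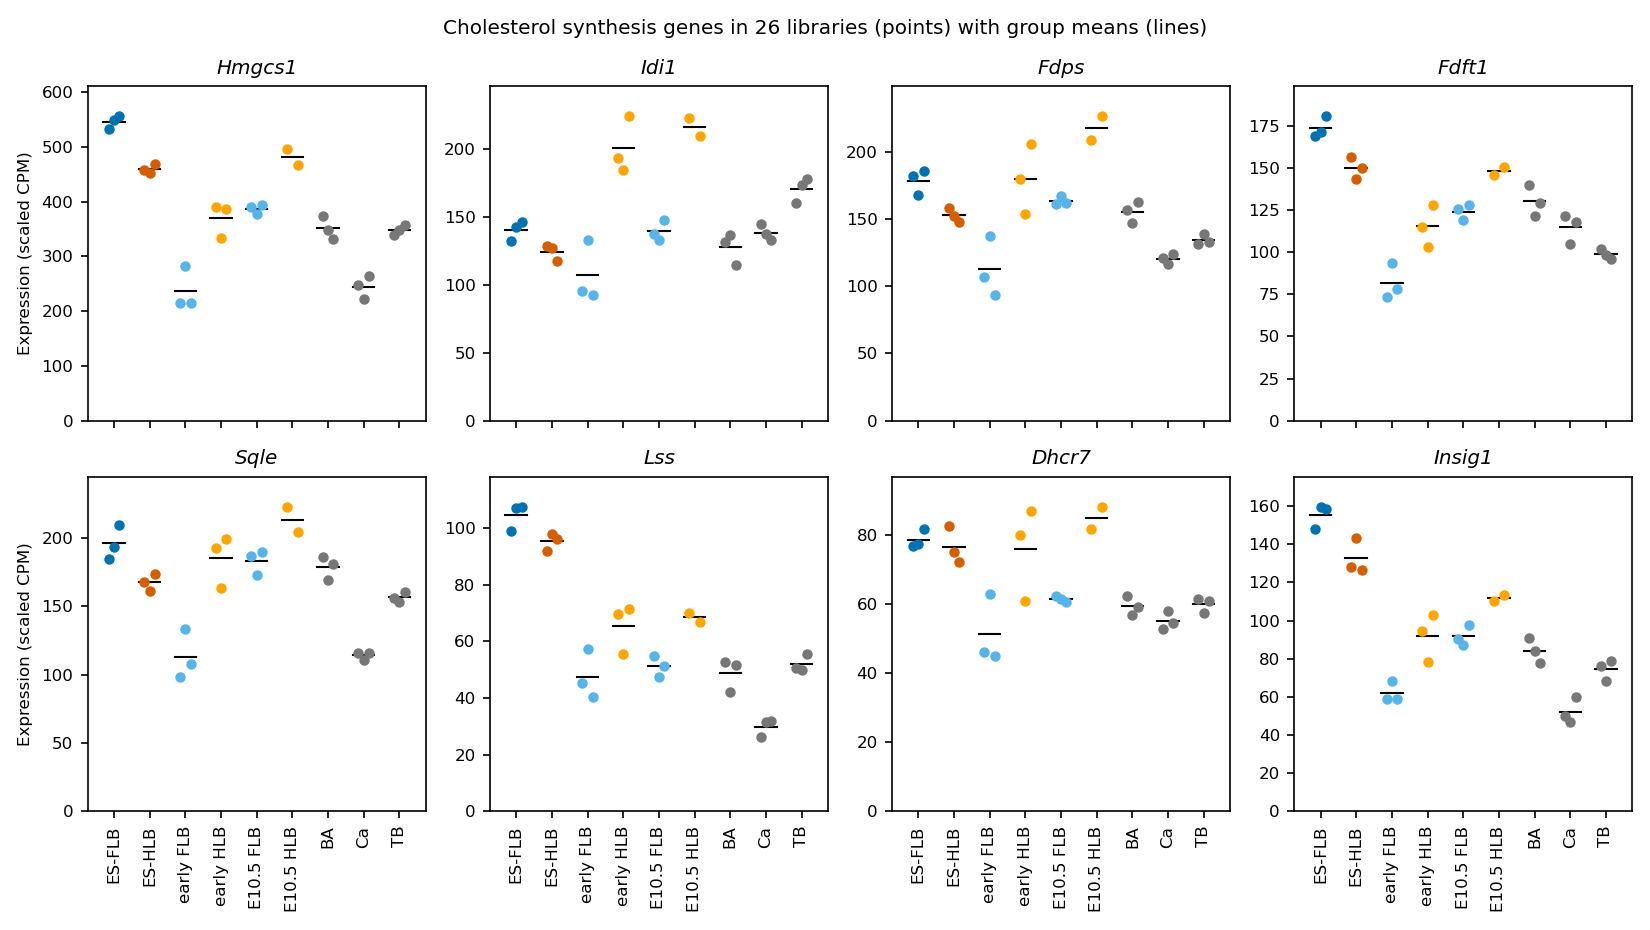
Scaled CPM of the 8 genes in each of the 26 libraries, 1 panel per gene, with the 9 groups on the horizontal axis; points are libraries and short lines are group means. The mean of the early FLBs is the lowest for 6 of the 8 genes and that of Ca for the other 2, Lss and Insig1.

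Hmgcs1, which makes HMG-CoA at the entry to the mevalonate pathway (chr13:119690351-119708260), had 533, 550.1 and 556 scaled CPM in the ES-FLB libraries and 458, 452 and 468 in ES-HLB. Among limb buds, the forelimbs of the early stage had 214, 282 and 215, the early HLBs 391, 334 and 386, the E10.5 FLBs 390.3, 378 and 393, and the E10.5 HLBs 497 and 468. BA had 374, 348 and 332, Ca 248, 222 and 265, and TB 339.9, 348 and 358. Every ES-FLB library was above every library of the other groups, and the early FLB and Ca libraries together lay below all others. In the order of group means, neighbouring groups passed an adjusted p below 0.05, the threshold for a call here, only between ES-HLB and the E10.5 FLBs and between TB and Ca.

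Idi1, the isomerase that makes the active isoprenoid unit dimethylallyl diphosphate (chr13:8885606-8892396), had 132, 142 and 146 scaled CPM in ES-FLB and 128, 127 and 117 in ES-HLB. Its early FLB libraries had 95.6, 133 and 92.5 and its early HLB libraries 193, 184 and 224, against 138, 133 and 147 in the E10.5 FLBs and 223 and 209 in the E10.5 HLBs. BA had 132, 137 and 114, Ca 145, 138 and 133, and TB 161, 174 and 178. Here both groups of hindlimb buds and TB stood above everything else, and the ES-LBs lay within the range of the E10.5 FLBs, BA and Ca. Idi1 took 8.92% and 9.13% of the sum of the 8 genes in ES-FLB and ES-HLB, and 11.2% to 15.9% in the 7 embryonic groups.

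Fdps, which joins isoprenoid units to farnesyl diphosphate (chr3:89093588-89101967, minus strand), had 182, 168 and 186 scaled CPM in ES-FLB, 158, 152 and 148 in ES-HLB, 107, 137 and 93.6 in the early FLBs, and 179, 154 and 206 in the early HLBs. At E10.5 the FLBs had 161, 167 and 162, the HLBs 209 and 226, BA 157, 147 and 163, Ca 121, 117 and 124, and TB 132, 139 and 133. The groups formed a gradual series in which none of the 8 neighbouring pairs was called. Fdps overlaps another annotated gene, Gm43738, on the same strand over 7512 bases, so its reads are uncertain in that stretch. Gm43738 is not among the genes listed, nor is Gm22935, a small nuclear RNA gene that overlaps Fdps over 104 bases.

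Fdft1, or squalene synthase, commits farnesyl units to sterols (chr14:63145150-63181687, minus strand). It had 169, 171 and 181 scaled CPM in ES-FLB, 157, 144 and 150.3 in ES-HLB, 73.2, 93.6 and 78.3 in the early FLBs, and 115, 103 and 128 in the early HLBs. At E10.5 there were 126, 119 and 128 in the FLBs, 146 and 151 in the HLBs, 139.8, 122 and 129 in BA, 122, 105 and 118 in Ca, and 102, 98.7 and 96.2 in TB. The ES-FLB libraries were the highest without overlap, and TB was second lowest after the early FLBs, a position it held for no other member.

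Sqle, the oxygen-dependent squalene epoxidase (chr15:59315092-59331193), had 185, 194 and 210.0 scaled CPM in ES-FLB and 168, 162 and 174 in ES-HLB. Early FLBs had 98.3, 133 and 108, early HLBs 193, 163 and 199.6, E10.5 FLBs 187, 173 and 190.2, and E10.5 HLBs 223 and 205. BA had 186, 169.6 and 181, Ca 116, 111 and 116, and TB 156, 153 and 160.3. The early FLB and Ca libraries formed the low end, and of the neighbouring pairs only TB and Ca were called.

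Lss, which closes the ring system to lanosterol (chr10:76531565-76557139), had 99.1, 107 and 107 scaled CPM in ES-FLB and 92.1, 97.8 and 96.0 in ES-HLB. No embryonic library reached these values: there were 45.1, 57.2 and 40.4 in the early FLBs, 69.8, 55.6 and 71.3 in the early HLBs, 54.7, 47.4 and 51.4 in the E10.5 FLBs, and 70.0 and 67.0 in the E10.5 HLBs. BA had 52.7, 42.1 and 51.7, Ca 26.2, 31.4 and 31.8, and TB 50.5, 49.9 and 55.6. Its highest group mean was 3.51 times its lowest, the widest span of the 8 genes. An antisense gene, 4930483K19Rik, overlaps Lss over 11268 bases on the opposite strand. Opposite-strand genes also overlap Hmgcs1 (Gm48342, 6190 bases), Idi1 (Gm48574, 323) and Fdft1 (Ctsb, 774). Of these opposite-strand genes, 4930483K19Rik and Ctsb are among the genes listed.

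Dhcr7, which carries out a last step to cholesterol (chr7:143823167-143848410), had 77.0, 77.4 and 81.8 scaled CPM in ES-FLB and 82.8, 75.2 and 72.1 in ES-HLB. Early FLBs had 46.1, 63.0 and 44.9, early HLBs 80.0, 60.9 and 87.0, E10.5 FLBs 62.4, 61.6 and 60.5, and E10.5 HLBs 81.8 and 88.2. BA had 62.4, 56.9 and 59.3, Ca 52.8, 58.1 and 54.5, and TB 61.4, 57.6 and 60.9. Dhcr7 varied least, with the highest mean 1.66 times the lowest, and the ES-LBs and both hindlimb groups formed its upper end by their means.

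Insig1, itself a target of SREBP2 (chr5:28071412-28078662), had 148, 159.6 and 159 scaled CPM in ES-FLB and 128, 143 and 126 in ES-HLB. Early FLBs had 58.6, 68.5 and 59.0, early HLBs 94.3, 78.3 and 103, E10.5 FLBs 90.2, 87.1 and 97.8, and E10.5 HLBs 110.3 and 113. BA had 90.6, 84.0 and 77.9, Ca 49.7, 46.8 and 60.0, and TB 76.3, 68.5 and 79.1. All 6 ES-LB libraries were above all embryonic libraries, as for Lss. Of 64 neighbouring pairs over the 8 genes, 16 were called, 4 of them for Insig1.

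The comparison of ES-FLB with the early FLBs asks how the sorted in vitro mesenchyme differs from the embryonic bud it was modelled on. All 8 genes were higher in ES-FLB, at an adjusted p below 0.05 in 1 limma model of all 9 groups on log2(scaled CPM + 0.5), with adjustment over 14697 genes. The difference on that log2 scale was 1.32 (SE 0.09, adjusted p = 1.6e-12) for Insig1, 1.22 (SE 0.08, adjusted p = 1.17e-11) for Hmgcs1, 1.14 (SE 0.11) for Lss and 1.09 (SE 0.07) for Fdft1, each more than 2-fold. It was 0.80 (SE 0.08) for Sqle, 0.68 (SE 0.10) for Fdps, 0.63 (SE 0.10) for Dhcr7 and 0.41 (SE 0.10, adjusted p = 0.00129) for Idi1, the smallest. In this comparison 76.1% of all genes were called, 38.6% as higher and 17.0% as at least 2-fold higher. For 7 of the 8 genes every ES-FLB library was above every early FLB library, which held for 40.7% of all genes, the exception being Idi1. The median of the 8 differences was 0.95, beside 0.02 over all genes. Early FLB replicate 2 was the highest of its group for all 8 genes, and all 8 were called whichever library was left out. On the CPM as deposited all 8 were called higher too, and 62.9% rather than 50.8% of all calls were higher.

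ES-HLB against the early HLBs gave a mixed picture: Hmgcs1, Fdft1, Lss and Insig1 were higher in vitro, Idi1 and Fdps were lower, and Sqle and Dhcr7 were not called, where 74.5% of all genes were called, 38.2% as higher and 36.3% as lower. The largest differences were 0.54 (SE 0.11, adjusted p = 8.09e-05) for Lss and 0.53 (SE 0.09, adjusted p = 1.32e-05) for Insig1 upwards and -0.69 (SE 0.10, adjusted p = 4.62e-06) for Idi1 downwards. Fdft1 differed by 0.38 (SE 0.07) and Hmgcs1 by 0.32 (SE 0.08). The values that were not called were -0.14 (SE 0.08, adjusted p = 0.126) for Sqle and 0.03 (SE 0.10, adjusted p = 0.829) for Dhcr7. The call on Fdps, at -0.22 (SE 0.10, adjusted p = 0.0470), was lost without any 1 of 5 of the 6 libraries, and on the CPM as deposited, where Fdps differed by -0.06 and 61.4% rather than 51.3% of all calls were higher. No member reached 2-fold, and the median was 0.17, beside 0.03 over all genes.

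**Figure D2:**
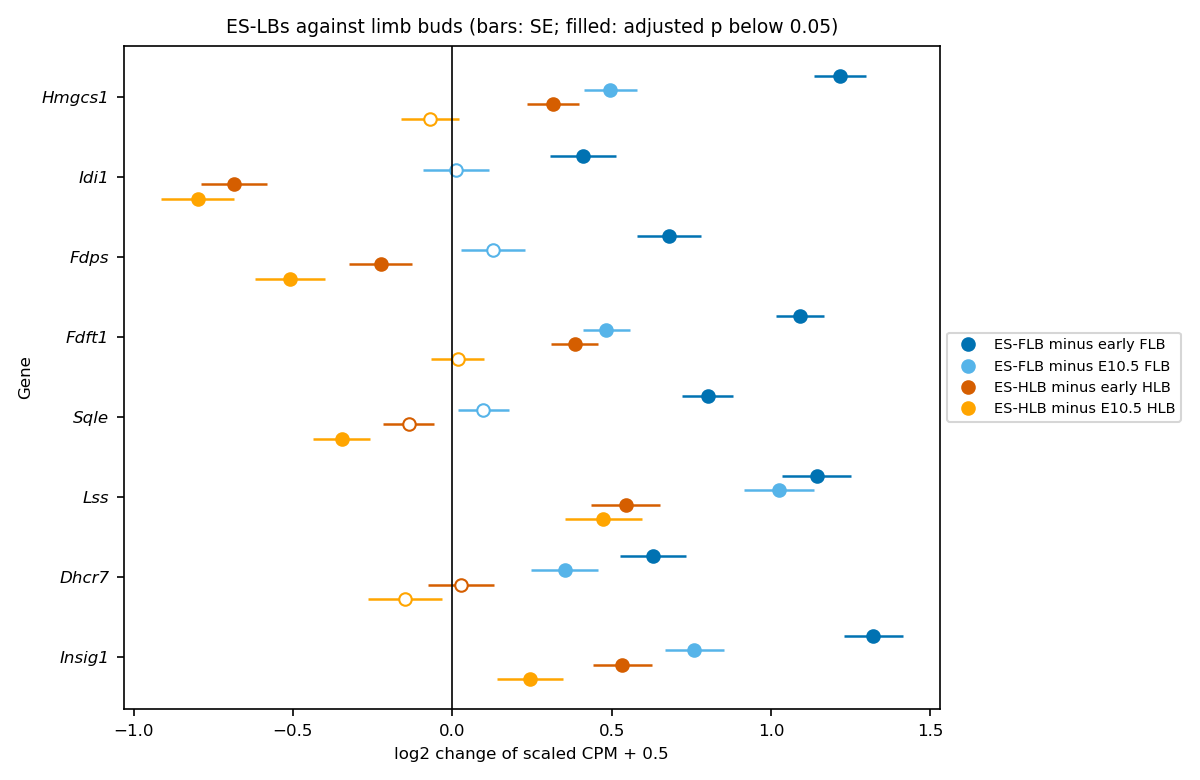
Difference of each of the 8 genes between ES-LBs and limb buds of the same type, as log2 of scaled CPM + 0.5, with bars for 1 SE; filled points passed an adjusted p below 0.05. Against the early buds the ES-FLB points lie between 0.41 and 1.32 and the ES-HLB points between -0.69 and 0.54.

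Limb buds of E10.5 gave a second reference for the same ES-LB libraries. Against the E10.5 FLBs, 5 of the 8 genes were higher in ES-FLB and none was lower (68.2% of all genes called, 33.7% as higher): Lss by 1.02 (SE 0.11), the only member past 2-fold, as were 11.4% of all genes, Insig1 by 0.76 (SE 0.09), Hmgcs1 by 0.50 (SE 0.08), Fdft1 by 0.48 (SE 0.07) and Dhcr7 by 0.35 (SE 0.10). Fdps, Sqle and Idi1 differed by 0.13, 0.10 and 0.01 and were not called. Against the E10.5 HLBs (68.0% called, 35.2% as higher and 32.9% as lower), Lss at 0.47 (SE 0.12) and Insig1 at 0.24 (SE 0.10) were higher in ES-HLB, whereas Idi1 at -0.80 (SE 0.12), Fdps at -0.51 (SE 0.11) and Sqle at -0.35 (SE 0.09) were lower. Hmgcs1, Fdft1 and Dhcr7 were not called there, at -0.07, 0.02 and -0.15. These comparisons share the ES-LB libraries with those against the early buds.

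The early HLBs were higher than the early FLBs for all 8 genes, in a comparison where 18.5% of all genes were called and 8.33% were called higher. Idi1 differed most, by 0.92 on the log2 scale (SE 0.10, adjusted p = 1.59e-06), or 1.89-fold. Sqle followed at 0.71 (SE 0.08, adjusted p = 3.81e-07), then Fdps at 0.68 (SE 0.10), Hmgcs1 at 0.65 (SE 0.08), Dhcr7 at 0.56 (SE 0.10), Insig1 at 0.56 (SE 0.09), Fdft1 at 0.50 (SE 0.07) and Lss at 0.47 (SE 0.11, adjusted p = 0.00297). The median was 0.61, beside 0.00 over all genes. Every early HLB library was above every early FLB library for 6 of the 8 genes, against 18.1% of all genes, the exceptions being Lss and Dhcr7. With the CPM as deposited all 8 were called higher too, and 60.8% rather than 44.9% of all calls were higher.

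Within both early groups 1 library stood apart. Summed over the 8 genes, the early FLB libraries had 739, 967 and 731 scaled CPM and the early HLB libraries 1315, 1134 and 1405, and replicate 2 was the highest FLB library and the lowest HLB library for all 8 genes. Without early FLB replicate 2 the 8 differences between limb types were 0.60 to 1.08, and without early HLB replicate 2 they were 0.57 to 0.98. When only the 6 libraries of these 2 groups were fitted, 5 of the 8 remained called. Markers of red blood cells, 7 genes whose defining globins were detected, summed to 3177, 4285 and 2301 CPM in the early FLBs and 6492, 6791 and 3314 in the early HLBs. The sum was highest in replicate 2 of each group, closely followed by replicate 1 in the early HLBs. The part of red blood cells in the result was not tested.

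At E10.5 the hindlimb was again the higher side: 6 of the 8 genes were called higher in HLB and none lower, where 20.5% of all genes were called and 9.68% were called higher. Idi1 differed by 0.63 (SE 0.12, adjusted p = 0.000593), Dhcr7 by 0.46 (SE 0.12), Lss by 0.42 (SE 0.12), Fdps by 0.41 (SE 0.11), Hmgcs1 by 0.32 (SE 0.09) and Fdft1 by 0.26 (SE 0.08). Insig1 at 0.29 (SE 0.10, adjusted p = 0.0519) and Sqle at 0.22 (SE 0.09, adjusted p = 0.0855) were not called. All libraries of the HLBs were above all libraries of the FLBs for all 8 genes, which held for 22.9% of all genes. Only 2 HLB libraries were available, and with 1 of them left out 3 members (without replicate 1) or 2 members (without replicate 3) were called. When the CPM as deposited were used, 4 were called higher, where 28.5% rather than 47.2% of all calls were higher.

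Between the ES-LB types the direction was the opposite, with the hindlimb-like group lower. ES-FLB had received RA and ES-HLB an RA antagonist, so limb type and RA treatment cannot be told apart here. Hmgcs1 differed by -0.25 (SE 0.08, adjusted p = 0.0356) and Fdft1 by -0.21 (SE 0.07, adjusted p = 0.0447), and the other 6 members, between -0.23 for Insig1 and -0.04 for Dhcr7, were not called (19.9% of all genes called, 8.65% as lower). Every ES-HLB library was below every ES-FLB library for 7 of the 8 genes, against 16.7% of all genes. Leaving out any 1 of the 6 ES-LB libraries reduced the called members to 0 or 1. Marker sums of 5 other cell types also differed between the ES-LB types, with no overlap. The 7 red blood cell markers summed to 5.48 to 8.69 CPM in ES-FLB and 90.4 to 170 in ES-HLB, 6 endoderm markers to 89.4 to 108 and 215 to 306, and 6 epithelial markers to 95.5 to 145 and 183 to 197. The sum of 6 endothelial markers was higher in ES-HLB too (38.3 to 43.7 against 25.4 to 29.7 CPM), and that of 4 branchial arch markers was lower (12.1 to 12.8 against 29.7 to 35.1). In both groups every one of these markers was detected. Single markers did not all follow their sum. Among endoderm markers, Apob, Apoa1 and Ttr differed by 2.72, 1.90 and 1.14, and Alb, Afp and Foxa2 by -3.15, -1.85 and -0.14. Among arch markers, Gsc, Barx1 and Dlx5 differed by -2.14, -0.51 and -0.27, and Dlx6 by 0.59. Epcam at -0.11 and Emcn at -0.22 went against the epithelial and endothelial sums. Of these 12 single markers, Apob, Apoa1, Alb and Gsc were called. The 6 limb mesenchyme markers summed to 1843 to 1927 CPM in ES-FLB and 1932 to 1964 in ES-HLB. Singly, Msx1, Hand2 and Prrx1 differed by 0.84, 0.60 and 0.49, and Fgf10, Pdgfra and Twist1 by -0.67, -0.45 and -0.13. Msx1, Fgf10 and Pdgfra were called. The part of these other cells in the result was not tested.

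The difference between these 2 differences was tested directly, as hindlimb minus forelimb in ES-LBs minus the same in the early limb buds. It was below 0 and called for all 8 genes, where 19.8% of all genes were called and 8.49% were called lower. Idi1 alone was past 2-fold, as were 2.65% of all genes in the lower direction. The values were -1.10 (SE 0.15, adjusted p = 1.43e-05) for Idi1, -0.94 (SE 0.11, adjusted p = 1.35e-06) for Sqle, -0.90 (SE 0.14) for Fdps, -0.90 (SE 0.12) for Hmgcs1, -0.79 (SE 0.13) for Insig1, -0.71 (SE 0.11) for Fdft1, -0.60 (SE 0.15) for Dhcr7 and -0.60 (SE 0.15, adjusted p = 0.00661) for Lss. Their median was -0.84, beside 0.01 over all genes. Without early FLB replicate 2 they were -1.26 to -0.74, without early HLB replicate 2 they were -1.15 to -0.71, and all 8 were called without any 1 library. On the CPM as deposited all 8 were called lower too, and 44.8% rather than 57.2% of all calls were higher. In the early buds the endoderm markers summed to at most 7.87 CPM, and the epithelial markers to 325 to 414 CPM in FLB and 292 to 345 in HLB, which overlap. Mean sums of the red blood cell markers were 3254 CPM in early FLB and 5532 in early HLB. They were 330 and 382 for the endothelial markers and 15.5 and 12.3 for the arch markers. Libraries of the early FLBs and HLBs overlapped for the red blood cell and endothelial markers, and did not for the arch markers. The part of these other cells in the result was not tested here either. Both early groups enter it, so their difference in stage in the study's text cannot be told apart from it. Nor can the opposite RA treatments of the ES-LB types.

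**Figure D3:**
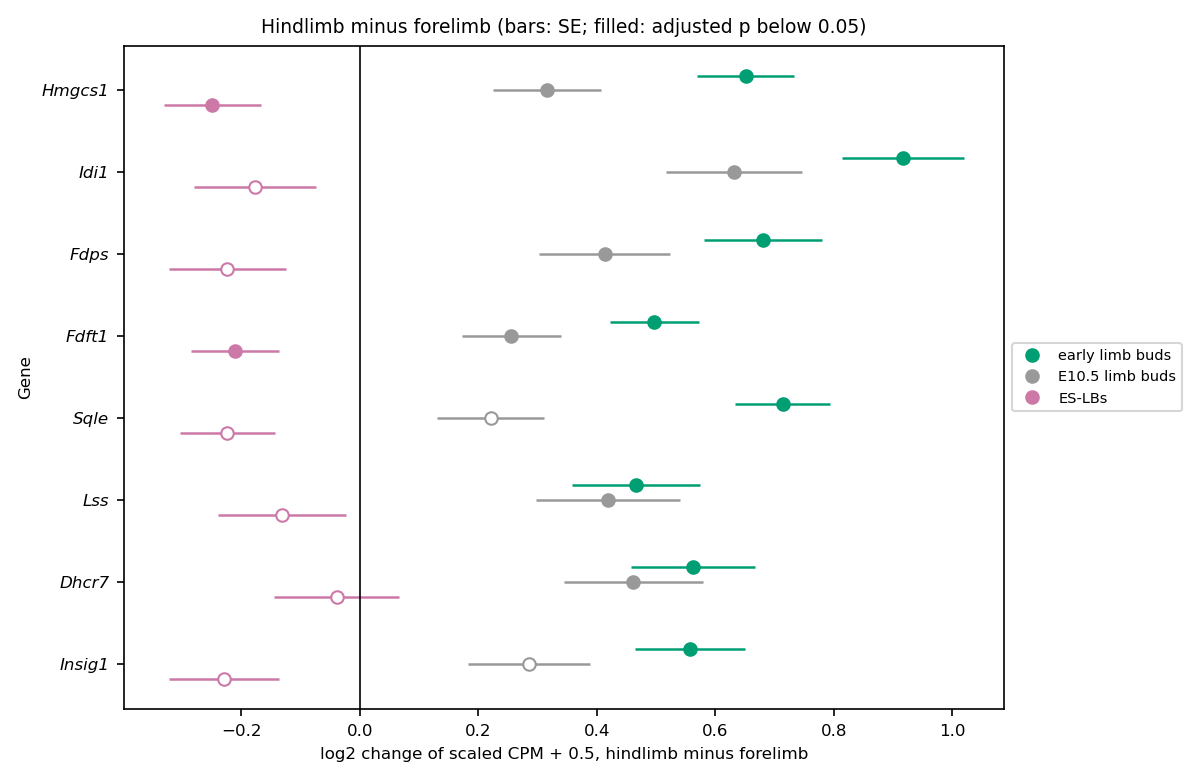
Hindlimb minus forelimb for each of the 8 genes, as log2 of scaled CPM + 0.5, in the early limb buds, the E10.5 limb buds and the ES-LBs, with bars for 1 SE and filled points for an adjusted p below 0.05. The limb bud points lie between 0.22 and 0.92 and the ES-LB points between -0.25 and -0.04.

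From the early stage to E10.5, 7 of the 8 genes rose in the FLBs (58.3% of all genes called, 27.9% as higher): Hmgcs1 by 0.72 (SE 0.08), Sqle by 0.70 (SE 0.08), Fdft1 by 0.61 (SE 0.07), Insig1 by 0.56 (SE 0.09), Fdps by 0.55 (SE 0.10), Idi1 by 0.40 (SE 0.10) and Dhcr7 by 0.28 (SE 0.10). Lss, at 0.12 (SE 0.11, adjusted p = 0.371), was not called. In the HLBs 3 of the 8 rose (28.5% of all genes called, 12.4% as higher), Hmgcs1 by 0.38 (SE 0.09), Fdft1 by 0.37 (SE 0.08) and Insig1 by 0.29 (SE 0.10), and the other 5 were between 0.07 and 0.28. The change differed between the limb types, when tested as such, for Sqle alone, at -0.49 in HLB minus FLB (SE 0.12, adjusted p = 0.00475), where 20.3% of all genes were called, 9.79% as lower. Without early FLB replicate 2 this count was 5, and without early HLB replicate 2 it was 4. Taking the CPM as deposited, 8 rose in the FLBs, 5 in the HLBs and 3 differed in their change, and the share of higher calls over all genes moved from 47.9% to 66.5%, from 43.4% to 58.1% and from 51.7% to 26.3%. The early buds were sequenced more deeply than those of E10.5 (19642258 reads or more against 5908858 or fewer), and the part of depth was not tested. In the study's text the early FLBs are of an earlier stage than the early HLBs. Limb type and the length of the interval to E10.5 therefore cannot be told apart here.

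Among the E10.5 tissues, the heart was the low one. Against the mean of the other E10.5 groups, 7 of the 8 genes were lower in Ca and none was higher (78.5% of all genes called, 40.5% as lower): Lss by -0.86 (SE 0.09), Insig1 by -0.78 (SE 0.07), Sqle by -0.67 (SE 0.06), Hmgcs1 by -0.67 (SE 0.07), Fdps by -0.45 (SE 0.08), Dhcr7 by -0.25 (SE 0.08) and Idi1 by -0.21 (SE 0.08). Fdft1, at -0.11 (SE 0.06, adjusted p = 0.0877), was not called. For 5 genes all Ca libraries were below all others, against 25.2% of all genes. Ca held 11784 CPM of 6 cardiomyocyte markers on average and 24307 to 35345 CPM of the red blood cell markers, against 2301 to 6799.8 in the other embryonic groups, and the part of blood RNA was not tested. In BA only Idi1 differed, by -0.36 (SE 0.08), and in TB only Fdft1 at -0.38 (SE 0.06) and Fdps at -0.26 (SE 0.08), each where 50.9% of all genes were called (25.7% as lower in BA and 25.5% in TB). On the CPM as deposited Fdft1 and Sqle were called higher in BA and Idi1 in TB as well, and 59.8% and 60.6% of all calls were higher, rather than 49.4% and 49.9%.

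The mean of the ES-LBs was above BA for 5 of the 8 genes (69.0% of all genes called, 34.0% as higher), led by Lss at 1.03, past 2-fold as were 9.73% of all genes, and Insig1 at 0.77, with Idi1, Fdps and Sqle not called. Against TB, 7 were higher, led by Insig1 and Lss at 0.94 each, and Idi1 was lower at -0.37 (SE 0.09), where 75.8% of all genes were called, 37.2% as higher and 38.6% as lower. Against Ca, 7 were higher (80.6% called, 41.5% as higher), with Lss at 1.73 (SE 0.09), Insig1 at 1.46 (SE 0.08) and Hmgcs1 at 1.04 (SE 0.07) above 2-fold, as were 14.5% of all genes, and Idi1 was not called at -0.07. Idi1 was the only member with a difference below 0 against TB or Ca.

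Among themselves, the 8 profiles over the 9 group means ran largely together. Pearson's r between pairs of members, over 9 group means and given as a description, was 0.16 to 0.96 with a median of 0.80 over the 28 pairs. With the mean of the other 7, r was highest for Hmgcs1 (0.96) and Dhcr7 (0.95), then 0.91 for Fdps and Sqle, 0.89 for Insig1, 0.79 for Fdft1 and 0.77 for Lss, and lowest for Idi1 (0.45). The group means share their libraries and scaling, so these values are not independent.

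Of 10161 genes that reached 16 CPM in some group, those with the profile nearest to that of the members included Nsdhl (r = 0.97 over 9 group means), Cyp51 (0.95), Fads2 and Mgst1 (0.93 each), Tm7sf2 (0.90), Sc5d, Etnk1 and Purg (0.88 each) and Gtf2ird1 (0.87). Nsdhl, Cyp51, Tm7sf2 and Sc5d are further enzymes of the same pathway, and Fads2 is a fatty acid desaturase. Nsdhl, for instance, had group means of 81.3 and 74.8 scaled CPM in ES-FLB and ES-HLB, 47.1 and 73.4 in early FLB and HLB, 63.8 and 86.8 in E10.5 FLB and HLB, 65.7 in BA, 55.9 in Ca and 65.1 in TB. Nsdhl was thus lowest in the early FLBs and Ca and highest in the E10.5 HLBs and ES-FLB.

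The other 14 enzymes of cholesterol synthesis were described as a list. Beside the counts of this and the following lists stand the shares of all genes. In ES-FLB against the early FLBs 76.1% were called, 38.6% as higher. In ES-HLB against the early HLBs 74.5% were called, 38.2% as higher and 36.3% as lower. Between the early limb buds 18.5% were called (8.33% as higher), and for the difference in vitro minus in vivo 19.8% (8.49% as lower). In ES-FLB against the early FLBs, 10 of the 14 enzymes were higher, 1 lower and 3 not called (median 0.75). The largest of these differences was 2.16 (SE 0.13) for Sc4mol, the current Msmo1, a sterol demethylation enzyme, followed by 1.45 (SE 0.11) for Mvd, 1.35 (SE 0.15) for Tm7sf2 and 1.07 (SE 0.10) for Sc5d. The lower one was Lbr, at -0.55 (SE 0.05), a sterol reductase that is also a protein of the nuclear envelope. In ES-HLB against the early HLBs, 6 were higher and 4 lower (median 0.08), with Mvd at 0.87, Sc4mol at 0.86, Tm7sf2 at 0.54 and Sc5d at 0.42 among the higher. Among the lower were Acat2 at -0.53, Ebp at -0.43 and Lbr at -0.35. Between the early limb buds 13 of 14 were higher in HLB (median 0.49), and the difference in vitro minus in vivo was below 0 for 12 of 14 (median -0.65), Lbr being above 0 at 0.21. Lbr also had the lowest r with the members, -0.17, where the median of the 14 was 0.85 and that of all 10161 genes -0.03.

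**Figure D4:**
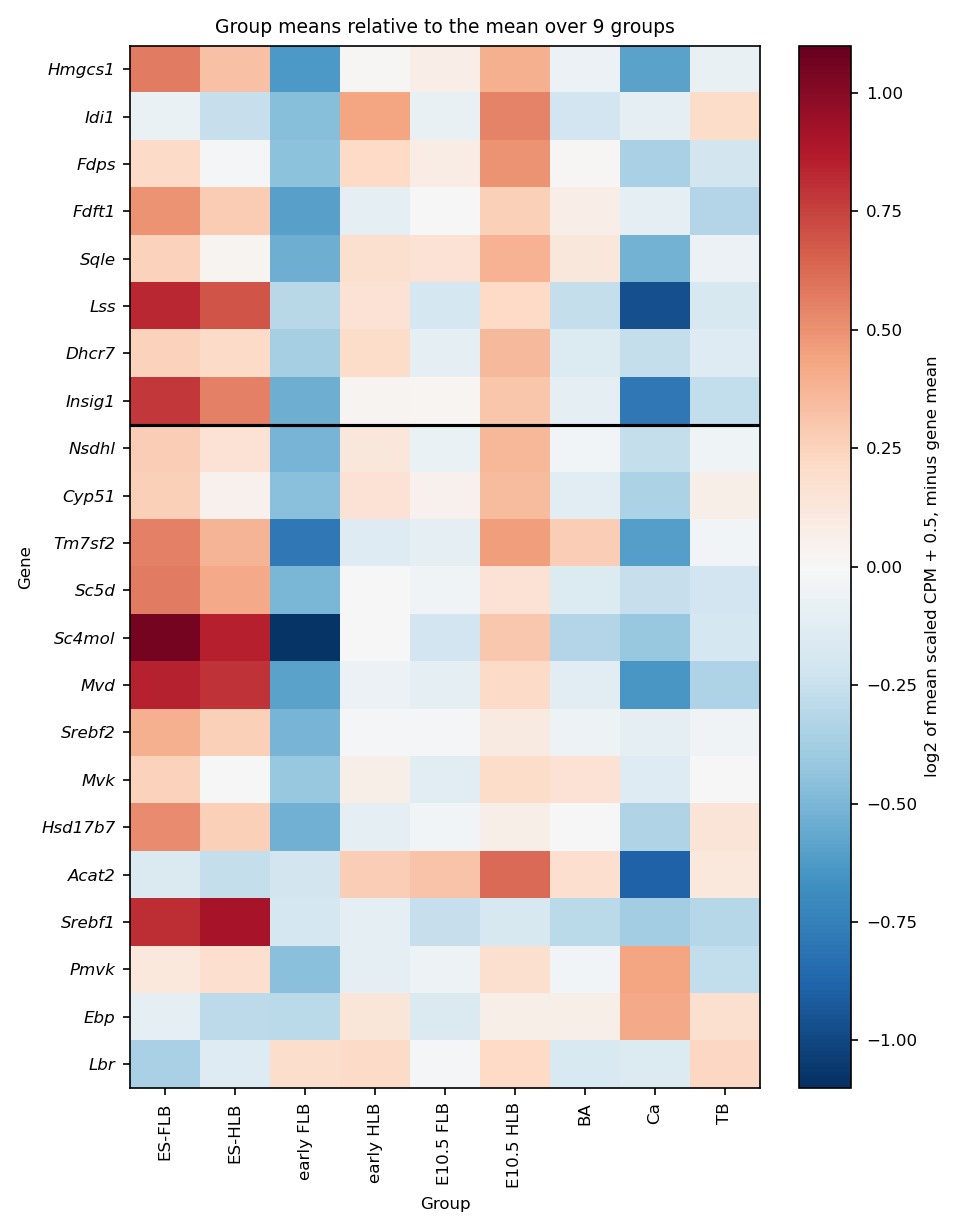
Colour map of the 8 genes (above the line), 12 other enzymes, Srebf2 and Srebf1 in rows and the 9 groups in columns, as log2 of mean scaled CPM + 0.5 minus the mean of the gene over groups. The rows of the 8 genes and of most other enzymes are low (blue) in the early FLBs and in Ca, whereas Lbr is above its mean in the early FLBs, and Pmvk and Ebp are above theirs in Ca.

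The genes that control the pathway did not share this profile as a list, with a median r of 0.29 over 7 genes. Srebf2, which encodes SREBP2, was nearest (r = 0.85). It differed by 0.90 (SE 0.06) between ES-FLB and the early FLBs, by 0.29 (SE 0.06) between ES-HLB and the early HLBs, and by 0.49 (SE 0.06) between the early HLBs and FLBs, with -0.62 (SE 0.09) for in vitro minus in vivo. Srebf1, which mainly serves fatty acid synthesis, differed by 1.00 and 1.02 (SE 0.06 each) in the ES-LBs against the early buds of either type, and by 0.08 between the early buds, which was not called. Insig2, the second INSIG gene, was higher in ES-LBs by 0.45 and 0.63 (SE 0.10 each), and the protease Mbtps1 by 0.63 and 0.62. In each of the comparisons of ES-LBs with early buds, 6 of the 7 control genes were higher and 1, Mbtps2, was lower, where 38.6% and 38.2% of all genes were called higher. Between the early limb buds Srebf2 was the only one called higher in HLB, and 5 of the 7 were not called.

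Genes of cholesterol uptake and transport split. Of 8, 4 were higher and 1 lower in ES-FLB against the early FLBs, and 5 were higher and 1 lower in ES-HLB against the early HLBs (medians 0.62 and 0.32). Over all genes 76.1% and 74.5% were called there, 38.6% and 38.2% as higher. Npc1, which exports cholesterol from lysosomes, differed by 1.11 and 1.03 (SE 0.08 each), and its partner Npc2 by 0.88 and 0.66. The sterol carrier Stard4 differed by 0.65 in the forelimb pair and by 0.13, not called, in the hindlimb pair. The list's median r with the members was 0.31, and between the early limb buds 3 were higher in HLB and 2 lower.

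Liver X receptors are switched on by sterols and raise genes of cholesterol efflux. Of 6 genes, the receptors Nr1h2 and Nr1h3 and 4 of their targets, 5 were higher and 1 lower in the forelimb pair, and 5 were higher and none lower in the hindlimb pair (medians 1.31 and 1.79), where 38.6% and 38.2% of all genes were called higher. The exporter Abca1 differed by 3.84 and 3.17 (SE 0.18 each), Apoe by 2.13 and 3.05 (SE 0.13 each), Mylip, a ubiquitin ligase induced by liver X receptors, by 1.88 and 1.90 (SE 0.08 each), and the exporter Abcg1 by 0.73 and 1.68 (SE 0.16 each). None of the 6 was called between the early limb buds. Their median r with the members, over the 4 that reached 16 CPM, was 0.46. Markers of endoderm, a source of lipoproteins, summed to 89.4 to 108 CPM over 6 genes in ES-FLB, 215 to 306 in ES-HLB and at most 7.87 in the limb buds, and their part in the difference of Apoe was not tested.

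Of 11 genes of fatty acid synthesis, 7 were higher and 1 lower in the forelimb pair and 8 were higher and 2 lower in the hindlimb pair (medians 0.62 and 0.56). Acss2, which makes acetyl-CoA, differed by 1.90 and 1.54 (SE 0.14 each), the desaturases Scd1 by 1.41 and 0.98, Fads1 by 0.96 and 0.56, and Scd2 by 0.77 and 0.63. In contrast to the cholesterol enzymes, 4 were higher and 2 lower between early HLB and FLB (median 0.09), and their median r with the members was 0.52. Of 6 genes of the isoprenoid branch, which draws on the product of Fdps, 2 were higher and 3 lower in the forelimb pair and 2 were higher and 1 lower in the hindlimb pair, with Nus1 at -0.41 and -0.25, Dhdds at 0.27 and 0.23, Fnta at 0.18 and 0.38, and Ggps1 at -0.22 and, not called, -0.16. The median r of the isoprenoid genes was 0.07. For both of these lists, the shares of all genes called were 76.1% in the forelimb pair and 74.5% in the hindlimb pair (38.6% and 38.2% as higher).

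A list of 8 proliferation genes was set beside the members. Of these, 7 were lower and 1 higher in each comparison of ES-LBs with early buds (medians -0.81 and -0.84), where 76.1% and 74.5% of all genes were called. The 8 proliferation genes summed to 2025 to 2263 CPM in the ES-LBs and 2699 to 2954 in the early buds. Between the early limb buds 1 was lower in HLB and 7 were not called, and none was called for the difference in vitro minus in vivo. At E10.5, 6 of 8 were higher in HLB than in FLB, where 9.68% of all genes were called higher. Their median r with the members was -0.13.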

How the data were processed

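The 27 libraries were stranded mRNA libraries of mouse ES-LBs and embryonic tissues. Per the labels and the study's methods, the authors mapped single-end reads to mm10 with HISAT2 2.0.4 and estimated counts per gene with Cuffdiff, and edgeR 3.16.2 was their tool for normalization and tests. The values as deposited by the authors are CPM, counts normalized to the library total, so no count model was fitted here. In the early limb buds 95.8% to 96.7% of low values were whole multiples of 1 read (within 0.1). In the other libraries used the share was 98.9% to 99.6%, and the cause of this difference was not tested. These multiples gave the depths, but the smallest values were fractions of a read, so whole reads could not be recovered. PCR reads without molecular identifiers are not independent molecules, and the floor of 3 reads covers counting error only.

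In the 26 libraries used (1 column of values was left out), CPM were rescaled by an unweighted trimmed mean of log ratios (trims of 30% and 5%), the 14697 genes that reached 1 CPM in 2 or more libraries were kept, and log2(CPM + 0.5) was fitted in 1 model of 9 groups with limma 3.58.1 in R 4.3.3, with variance trend and robust estimation and Benjamini-Hochberg adjustment. The design had been written for either counts or normalized values. Because of the added 0.5, fold changes of weakly expressed genes are too small. The 8 members and all gene lists were chosen with earlier results of these data known. Beside the members, the text names up to 4 genes of each list with the largest mean difference of ES-LBs from early buds, Srebf2, Srebf1 and Insig2, and genes among the 10 nearest in profile. Lbr, Acat2, Mbtps2, Pmvk, Ebp and single markers of cell types were chosen after their values were seen. A few genes that the naming rule would bring in are not reported here. Tables and figures were made with Python 3.11.15, pandas 2.3.3, numpy 2.4.6 and matplotlib 3.10.9. Gene positions and promoter windows are from RefSeq, and exon lengths, strands and gene overlaps are from the GENCODE basic annotation.

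In a simulation of ES-FLB against the early FLBs, 83 of 96 genes changed by 1 on the log2 scale and 54 of 93 changed by 0.5 were recovered, with 4 false calls among 13662 genes. These changed genes were a far smaller share than the 76.1% called in the data, so recovery and false calls may differ there. Alternatives were other scalings, filters, pseudocounts and thresholds, limma without trend and robust estimation, a replicate block, a fit of only the groups compared, the left-out library with its lost values missing, and each library left out in turn.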

Additional observations from a re-analysis of the deposited data

Results flagged for a closer look

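The 8 members were marked because a test of the difference of differences was passed: hindlimb minus forelimb in the ES-LBs, minus the same in the early limb buds. On the log2 scale this was -0.90 for Hmgcs1, -1.10 for Idi1, -0.90 for Fdps, -0.71 for Fdft1, -0.94 for Sqle, -0.60 for Lss, -0.60 for Dhcr7 and -0.79 for Insig1, with an adjusted p (limma) of 0.00661 or less. The hindlimb libraries were higher than the forelimb libraries in vivo and lower in vitro by their group means for all 8 genes. Limb type cannot be told apart from RA treatment in vitro, nor from stage in the early buds.

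Sqle was also marked because its change from the early stage to E10.5, tested between the limb types, was smaller in the HLBs than in the FLBs, by -0.49 on the log2 scale (limma, adjusted p = 0.00475). By the study's text the interval to E10.5 was longer for the FLBs, which cannot be told apart from limb type.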

How the results depend on the processing

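No difference of a member changed sign past the threshold under any alternative, and 300 of 330 counts of called members stayed within 1.5 times the reported count. On the CPM as deposited, which moved the median difference of all genes by up to 0.22, 5 members instead of 3 were called between the HLB stages, 3 instead of 1 in BA and 3 instead of 1 for the change in HLB minus FLB. Between the ES-LB types (2 reported), 1 was called without a filter on low values, 0 without trend and robust estimation, 1 with the replicate block and 6 in a fit of only the groups compared. That fit also gave 5 instead of 8 between the early limb buds, 2 in BA, 4 in TB and 0 for the change in HLB minus FLB. With the left-out library included, 3 members differed in that change. At an adjusted p below 0.001, 2 were called for ES-HLB against the E10.5 HLBs, 1 between the E10.5 limb buds, 1 in TB, and 0 between the ES-LB types, between the HLB stages, in BA and for the change in HLB minus FLB. With 1 library left out, the counts were 1 to 5 for that change, 2 to 5 between the HLB stages (5 without early HLB replicate 3), 2 to 6 between the E10.5 limb buds and 0 to 1 between the ES-LB types. A stricter threshold gives fewer calls by construction, and the other causes were not tested. Same-numbered libraries did not deviate together (mean correlation 0.015 over 36 pairs of groups, 0 of them with every number over 0.1), so the replicate number was not used as a pairing. The replicate block also ended the call on Fdps in ES-HLB against the early HLBs. Depth does not limit the detection of any of the 8 genes, all of which were far above 3 reads. Its part in the comparisons with the early buds was not tested. The number of libraries is a limit, with 2 in the E10.5 HLBs.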
